A study of Mus musculus with 14 samples.

Results

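Chromatin accessibility at 48 h of GATA6-driven differentiation was compared with accessibility at 2 h, both in serum medium. The comparison took the 2 libraries of 48 h and the 2 of 2 h, 4 of the 14 ATAC-seq libraries of the series. ATAC-seq uses a transposase that inserts sequencing adapters into open DNA, and each library was deposited as a list of peaks. Merging the 4 lists wherever peaks shared 1 bp or more gave 95549 regions, against 124598 from all 14 lists. Gained regions were those with a call in both libraries at 48 h and none at 2 h. Lost regions had calls in both at 2 h and none at 48 h, and shared regions had a call in all 4 lists. All samples were KH2 mouse embryonic stem (ES) cells of strain C57BL/6 that carry a GATA6 transgene with a DsRed2 reporter under a doxycycline (Dox)-responsive TRE promoter, and 50000 cells went into each library. Cells at 0 h were in serum-free 2i medium with LIF and had no Dox. Cells at 2 h had been moved to serum medium with LIF and 1 µg/mL Dox for 2 h. Cells at 48 h had received the same Dox for 12 h and then the same serum medium without it. Medium is thus matched between 2 h and 48 h, while the presence of Dox at collection is not, and no library came from cells kept in serum without Dox. The study states in general that its replicates were independent experiments, while the labels do not say whether the 2 libraries of a time point came from separate cultures.

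ES cells in culture resemble the epiblast (Epi), which forms the embryo proper, and GATA6 is the transcription factor that directs cells of the blastocyst to the primitive endoderm (PrE), the source of the yolk sac endoderm. GATA factors bind DNA at the core letters GATA and are known to open closed chromatin, while pluripotency factors such as OCT4 and SOX2 keep ES cell enhancers open. AP-1 factors of the FOS and JUN families are made within minutes of serum or growth factor addition and bind at enhancers.

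The 2 h lists held 58322 and 61988 peaks over 28.2 and 30.3 Mb. The 48 h lists held 55588 and 58450 peaks over 23.0 and 25.6 Mb, so the later lists covered less sequence. Read counts are not part of the lists and depth was not used here, and absence from a list does not show closed chromatin. These are bulk samples, in which fewer cells open at a site and less signal per cell cannot be told apart. No p-value is given for these counts, since a two-sided exact permutation test of 2 against 2 libraries cannot go below 0.333. Instead each share is given with its SD over the 2 same-numbered pairs of libraries (1 of 48 h against 1 of 2 h), which call more regions because each rests on 2 lists in place of 4.

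The regions below are examples that hold motifs described further on, and they do not stand for their classes. Each line gives 200 bases around the midpoint of 1 region, from the plus strand of GRCm38. Capitals mark GATA motifs (AGATAA or TGATAA), AP-1 motifs (TGANTCA) or octamers (ATGCAAAT, bound by OCT4), on either strand. GATA motifs were in 40.1% of all gained regions, AP-1 motifs in 30.1% and octamers in 4.05% of all lost regions. The gained region with the highest score, at Esrrg, held no GATA motif, and the highest lost region, at Gramd3, held none of these motifs. The first 4 were gained and called in neither 0 h library. They lie in an intron of Etl4 (chr2:20593571-20593770), upstream of Car4 (chr11:84945098-84945297), 12.1 kb upstream of Gata4 (chr14:63283727-63283926) and 40.3 kb upstream of Sox17 (chr1:4537574-4537773), the last 3 between genes. Etl4 and Car4 are shown as 2 of the 5 gained regions with the highest peak scores by the lower of the 2 libraries, and Gata4 and Sox17 as PrE regulators.
Etl4 gained: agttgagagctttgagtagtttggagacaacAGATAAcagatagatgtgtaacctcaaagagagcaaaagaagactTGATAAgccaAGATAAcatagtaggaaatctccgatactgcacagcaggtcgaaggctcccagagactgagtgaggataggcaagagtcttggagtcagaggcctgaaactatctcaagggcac
Car4 gained: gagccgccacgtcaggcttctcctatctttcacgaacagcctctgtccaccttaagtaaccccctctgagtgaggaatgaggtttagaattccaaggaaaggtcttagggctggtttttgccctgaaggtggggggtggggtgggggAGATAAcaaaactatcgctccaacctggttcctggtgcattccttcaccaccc
Gata4 gained: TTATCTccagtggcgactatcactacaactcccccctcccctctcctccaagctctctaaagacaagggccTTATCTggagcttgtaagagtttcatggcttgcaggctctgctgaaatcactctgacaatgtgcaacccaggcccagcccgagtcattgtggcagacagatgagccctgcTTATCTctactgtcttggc
Sox17 gained: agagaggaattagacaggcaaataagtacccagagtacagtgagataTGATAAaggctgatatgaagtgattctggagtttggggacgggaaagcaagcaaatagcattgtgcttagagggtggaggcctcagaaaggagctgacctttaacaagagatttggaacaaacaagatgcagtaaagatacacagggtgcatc
Of the lost regions, those in introns of Zfyve26 (chr12:79248433-79248632) and Esrrb (chr12:86478981-86479180) were also called in both 0 h libraries. The Zfyve26 region was 1 of the 5 lost regions with the highest scores. The Esrrb region ranked lower, at percentiles 16.6 and 58.1 of the 2 h lists, and is shown as an example with an octamer. Those in introns of Ahdc1 (chr4:133071019-133071218), Lamc1 (chr1:153300519-153300718) and Adgrl2 (chr3:148936951-148937150) were the 3 highest among lost regions that neither 0 h library called, ranked by the lower of the score percentiles in the 2 libraries, and each held an AP-1 motif.
Zfyve26 lost: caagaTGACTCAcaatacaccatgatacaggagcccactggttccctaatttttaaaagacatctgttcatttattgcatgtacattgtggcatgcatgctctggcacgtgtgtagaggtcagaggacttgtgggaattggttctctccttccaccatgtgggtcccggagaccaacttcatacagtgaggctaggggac
Esrrb lost: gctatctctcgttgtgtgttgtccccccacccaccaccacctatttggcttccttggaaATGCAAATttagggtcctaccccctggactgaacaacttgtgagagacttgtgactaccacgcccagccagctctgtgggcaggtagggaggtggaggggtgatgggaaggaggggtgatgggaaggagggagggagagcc
Ahdc1 lost: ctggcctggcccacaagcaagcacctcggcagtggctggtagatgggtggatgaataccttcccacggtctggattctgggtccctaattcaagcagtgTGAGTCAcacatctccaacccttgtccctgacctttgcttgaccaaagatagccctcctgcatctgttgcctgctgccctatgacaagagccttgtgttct
Lamc1 lost: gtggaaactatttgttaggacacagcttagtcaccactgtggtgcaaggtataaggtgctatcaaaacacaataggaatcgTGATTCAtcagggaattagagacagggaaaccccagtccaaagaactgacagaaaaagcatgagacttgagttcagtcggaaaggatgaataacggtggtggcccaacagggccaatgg
Adgrl2 lost: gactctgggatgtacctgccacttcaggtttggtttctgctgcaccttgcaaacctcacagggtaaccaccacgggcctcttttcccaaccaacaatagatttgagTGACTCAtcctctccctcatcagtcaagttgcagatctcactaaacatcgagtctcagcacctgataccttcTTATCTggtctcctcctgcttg

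Between 2 h and 48 h, 17212 regions were gained (18.0% of the 95549), 21568 were lost (22.6%) and 24709 were shared (25.9%), while the other 32060 were called in other combinations. Gained regions made up 44.4% of the changed ones. The pairs gave 24900 and 26107 gained and 28409 and 30235 lost regions, with more losses than gains in both. Leaving out the first 48 h library turned this order, with 24318 gained and 22920 lost regions. Leaving out the second did not, with 22432 gained and 23546 lost. Each of these sets asks 1 call at 48 h and still 2 at 2 h, which by itself favours gains. When 1 call at a time point was enough, the counts rose to 28527 gained and 32966 lost. Changed regions were weaker peaks than shared ones. The median score percentile of gained regions within their own list was 44.4 ± 1.24 at 48 h (SD, n = 2 libraries) and that of lost regions was 48.7 ± 2.10 at 2 h, against 71.4 ± 1.44 and 67.8 ± 1.44 for shared regions in the same lists.

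Most gains also held against 0 h, while losses divided. The comparison with 0 h shares the 48 h libraries with the one above, so these are counts and no test. Of the gained regions, 14942 (86.8%) were called in neither 0 h library, 1380 (8.02%) in 1 and 890 (5.17%) in both. Of the lost regions, 11170 (51.8%) were called in both 0 h libraries, 2119 (9.82%) in 1 and 8279 (38.4%) in neither. The last 8279 were therefore called at 2 h only after the move to serum and Dox and were no longer called at 48 h. Serum and Dox began together, and their parts in these calls cannot be told apart. Lost regions called in both 0 h libraries had a median score percentile of 55.7 ± 1.72 at 2 h (SD, n = 2 libraries), against 42.3 ± 2.54 for those called in neither.

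**Figure D1:**
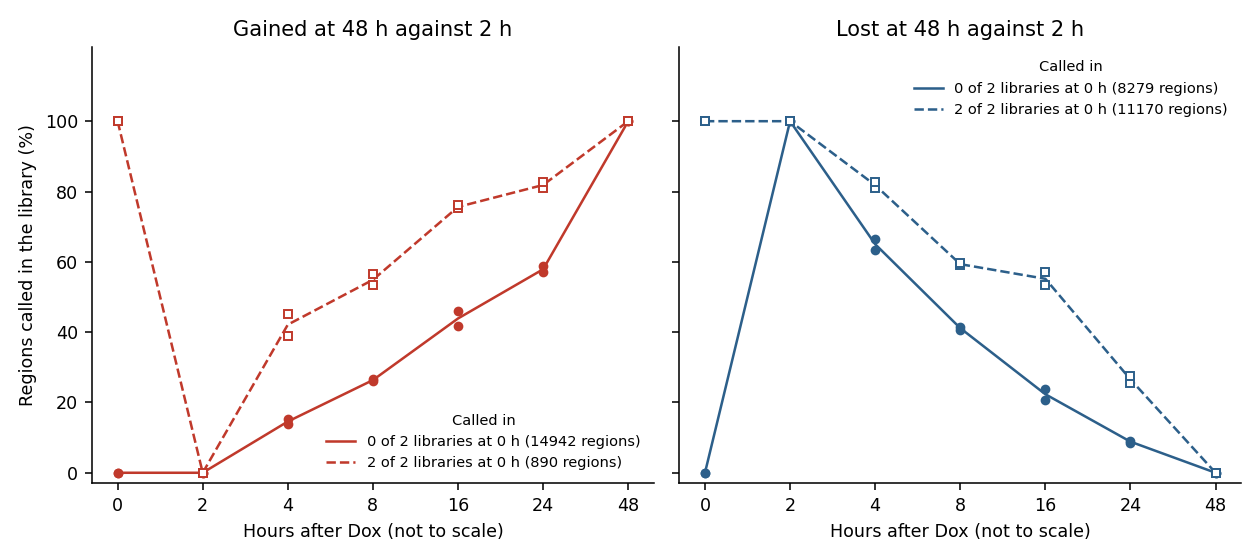
Percent of regions called in each library (y axis) at each time point (x axis, hours after Dox, evenly spaced), for regions gained (left) or lost (right) at 48 h against 2 h. Points are the 2 libraries and lines their means, for regions called in 0 or in 2 of the 2 libraries at 0 h, and values at 2 h and 48 h are fixed by the definition. Gained regions not called at 0 h rose to 57.9% at 24 h, and lost regions not called at 0 h fell to 8.84%.

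The libraries of 4, 8, 16 and 24 h took no part in the definition and showed when the changes appeared. The share of gained regions with a call was 17.2% ± 1.43 at 4 h (SD, n = 2 libraries), then 29.3% ± 0.0452 by 8 h, 47.0% ± 2.44 by 16 h and 60.5% ± 1.19 by 24 h. Lost regions were called at 74.2% ± 1.81, 51.5% ± 0.0951, 41.2% ± 2.49 and 19.1% ± 1.14 at the same times. The libraries of neighbouring time points did not overlap in either class. Over these 8 libraries the share of gained regions rose with time (Spearman's rho = 0.976, exact two-sided permutation p = 0.000794, Pearson's r = 0.992, p = 0.000397) and that of lost regions fell (rho = -0.976, p = 0.000794, r = -0.970, p = 0.000794). Adjusted over the 2 relations (Benjamini-Hochberg), both rank correlations kept p = 0.000794 in the exact permutation test, the smallest that 40320 orders can give here. Leaving out the 2 libraries at the greatest distance from the median time gave r = 0.992 (exact permutation p = 0.0111) and r = -0.916 (p = 0.0222). A trend of this direction is partly built in, because the classes were defined by the end points of the same series. The p-values therefore describe the order of the libraries and are not evidence that a trend exists.

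Lost regions absent at 0 h were called less often from 4 h to 24 h than those already called at 0 h. Lost regions called in neither 0 h library had a call in 65.0% ± 2.23 at 4 h (SD, n = 2), 41.1% ± 0.606 by 8 h, 22.3% ± 2.15 by 16 h and 8.84% ± 0.444 by 24 h. Those called in both 0 h libraries were at 81.8% ± 1.23, 59.3% ± 0.310, 55.2% ± 2.67 and 26.5% ± 1.58. At each of the 4 times the 2 libraries of the first class lay below both of the second. The first class also had lower scores at 2 h, with a median percentile of 42.3 against 55.7. The classes were not matched on score, so an earlier loss cannot be told apart from weaker peaks. Of all gained regions, 8265 (48.0%) were first called in both libraries without a later break only at 48 h, while 1467 (8.52%) had been so from 4 h. Of all lost regions, 3194 (14.8%) were called in neither library from 4 h on and 5286 (24.5%) only at 48 h.

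The 2 h calls were also checked in a library that the definition did not use. When the classes were defined with 1 of the 2 h libraries, the other called 11.8% ± 3.09 of the gained regions (SD, n = 2 held-out libraries) and 79.5% ± 5.08 of the lost regions. The mean over the 0 h libraries was 14.3% and 52.8% for the same regions, and over the 4 h libraries 22.7% and 65.5%.

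Shared regions were often promoters, while gained and lost regions were mostly distal. Of the shared regions, 45.9% (pairs 42.5% ± 0.688, SD, n = 2) had their midpoint within 1 kb of the transcription start site (TSS) of a protein-coding gene. The share was 12.5% for gained (14.8% ± 1.52) and 4.98% for lost regions (6.38% ± 0.618), against 20.3% of all regions. With the TSS of all annotated genes the lost share was 10.7% and the gained share 18.2%, in the same order. The median distance was 18.3 kb for gained, 25.1 kb for lost and 2.53 kb for shared regions, and 26.3%, 32.7% and 11.9% lay more than 50 kb from any TSS. Gained regions that both 0 h libraries had called were closer to genes, with 25.8% within 1 kb against 10.1% of those that neither had called. Median widths were 410 bp for gained, 511 bp for lost and 649 bp for shared regions. The width of shared regions is partly built in, since they merge peaks of more lists.

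**Figure D2:**
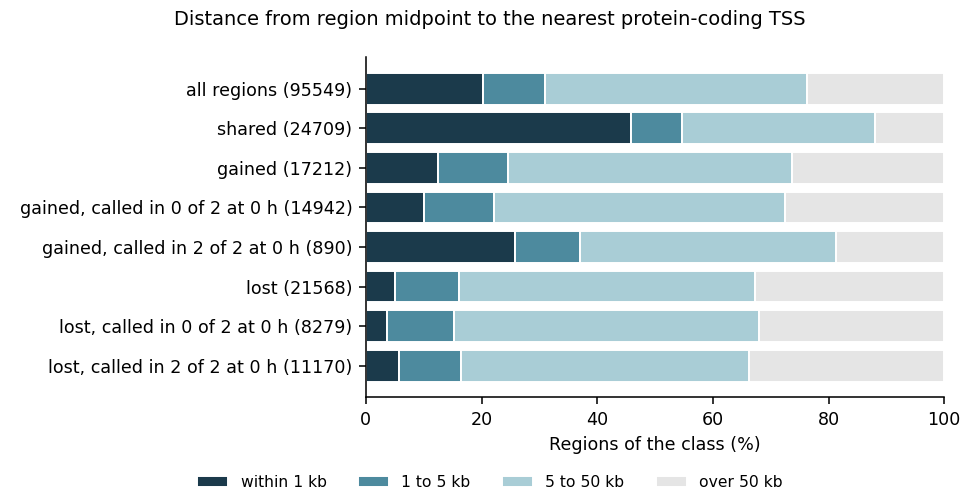
Percent of regions (x axis) by distance from the midpoint to the nearest protein-coding TSS, for all regions and each class (y axis, number of regions in parentheses). The dark segment within 1 kb is 45.9% of shared, 12.5% of gained and 4.98% of lost regions.

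The 2145 gained promoter regions lay at 1934 genes (11.3% of the 17169 genes with a region within 50 kb) and the 1075 lost ones at 1018 genes (5.93%). Of the gained promoter regions 70.0% were called in neither 0 h library, and of the lost ones 59.7% were called in both. Among the PrE transcription factors, 7 of 10 had a gained region within 1 kb of a TSS, against 11.3% of all genes. Tcf7l2, 1 of the 7, also had a lost one 687 bp from a TSS. The 10 factors had 96 gained, lost or shared regions, against 48976 at all 17169 genes, and the shares were not adjusted for this. The Gata4 promoter region (86 bp upstream) was called in both libraries at 8 h, in 1 at 16 h and 24 h and in both at 48 h. That of Foxa2 was called in both libraries from 8 h on, that of Hnf4a (128 bp upstream) from 16 h on, and that of Sox17 in 1 library at 16 h and in both from 24 h. The Sox7 promoter region was called in 1 library at 24 h and in both at 48 h. Promoters with a gained region were not all without other calls: a shared region lay 432 bp upstream of a Gata4 TSS and another 968 bp downstream of a Sox17 TSS. At Sox7, a separate region 942 bp upstream was called in both libraries at 0 h, in 1 at 2 h and in both from 4 h on. These factors are endoderm regulators that act with or after GATA6.

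**Figure D3:**
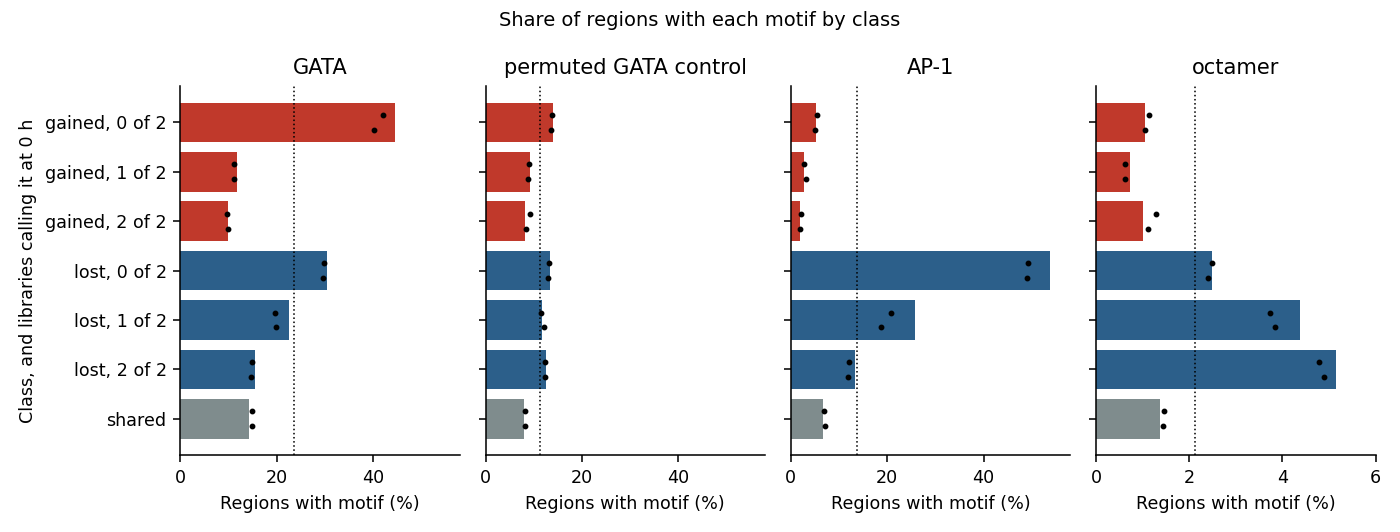
Percent of regions with each motif in the 200 bp around the midpoint (x axis, 1 scale for the first 3 panels), by class and number of 0 h libraries that called the region (y axis). Bars are the class, points the 2 same-numbered pairs, and the dotted line all 95549 regions. The GATA bar is longest in gained regions not called at 0 h (44.5%) and the AP-1 bar in lost regions not called at 0 h (53.8%).

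GATA motifs were most frequent in gained regions, in particular those absent at 0 h. The motif was in 40.1% of gained regions (pairs 35.4% ± 0.582, SD, n = 2), 21.9% of lost (21.4% ± 0.0290) and 14.3% of shared regions (14.8% ± 0.0531), against 23.6% of all regions. The permuted letters AAGTAA or TAGTAA were in 13.4%, 12.8% and 7.90%. Gained regions called in neither 0 h library held the motif in 44.5% and those called in both held it in 10.0%, and 13.6% against 1.01% held 2 or more. The order of lost above shared did not hold among regions over 5 kb from a TSS, where the motif was in 44.5% of the gained, 22.7% of the lost and 23.3% of the shared ones. It also turned within the lowest and the middle of 3 groups of GC content, with 31.7% of lost and 41.0% of shared regions in the lowest, while gained regions were highest in each group. The motif was in 65.2% of gained regions settled from 4 h on, 50.4% from 8 h, 38.6% from 16 h, 30.5% from 24 h and 37.6% at 48 h only.

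AP-1 motifs were most frequent in lost regions that had appeared after 0 h. They were in 30.1% of lost regions (27.9% ± 0.248 over pairs, SD, n = 2), 4.80% of gained (4.75% ± 0.112) and 6.75% of shared regions (7.005% ± 0.0157), against 13.7% of all. Among lost regions the share was 53.8% where neither 0 h library called the region, 25.8% where 1 did and 13.4% where both did. In the 3 groups of GC content the first share was 50.1%, 57.5% and 55.0%, and the last 14.0%, 13.5% and 11.8%. Of the lost regions absent at 0 h, 40.5% held AP-1 alone, 17.1% GATA alone, 13.3% both and 29.1% neither. Those with the AP-1 motif had calls in 36.8% ± 0.620 at 8 h and 15.0% ± 1.76 at 16 h (SD, n = 2), below the 46.2% ± 0.591 and 30.8% ± 2.60 of those without it, with no overlap between libraries. Among lost regions called in both 0 h libraries the order was the opposite at 4 h and 8 h, with calls in 86.6% ± 1.70 and 64.1% ± 0.568 of those with the motif and 81.1% ± 1.16 and 58.6% ± 0.446 of those without it, again with no overlap. It turned by 16 h and 24 h, to 51.4% ± 2.36 and 22.8% ± 1.09 with the motif and 55.7% ± 2.71 and 27.1% ± 1.65 without.

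Octamers were in 5.15% of lost regions called in both 0 h libraries, 2.49% of lost regions called in neither, 1.02% of gained and 1.38% of shared regions. Over all regions the share was 2.13%. The nuclear receptor element AAGGTCA, to which ESRRB and NR5A2 bind, was in 8.06% of lost, 4.27% of gained and 3.67% of shared regions, against 5.31% of all. The SOX motif ACAATGG was found in 8.35% of gained regions, against 4.72% of lost, 3.34% of shared and 5.07% of all regions. It reached 12.2% among gained regions settled from 16 h on. TEAD motifs (ACATTCC) were in 6.88% of gained, 4.99% of lost, 3.77% of shared and 5.1% of all regions. In the same order, KLF motifs (CCACACCC) were in 3.42%, 5.83%, 3.97% and 4.48%, and the SRF CArG box in 0.848%, 0.983%, 0.745% and 0.831%. Over 5 kb from a TSS, lost fell below shared regions for TEAD (5.08% and 5.70%) and SOX (4.86% and 5.36%). There gained fell below shared regions for the nuclear receptor element (4.64% and 5.42%) and the CArG box (0.846% and 0.953%). Motif matches are descriptions of letters and not of bound factors.

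Regions were assigned to the protein-coding gene with the nearest TSS within 50 kb, and 17169 genes had at least 1. Of these, 3461 genes (20.2%) had gained and no lost regions, 3990 (23.2%) lost and no gained, 3846 (22.4%) both and 5872 (34.2%) neither. In all, 4546 genes (26.5%) had more gained than lost regions and 5326 (31.0%) more lost than gained. Over all genes, 25.9% of the gained, lost and shared regions were gained and 29.6% were lost, and the lists below are set beside these shares.

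**Figure D4:**
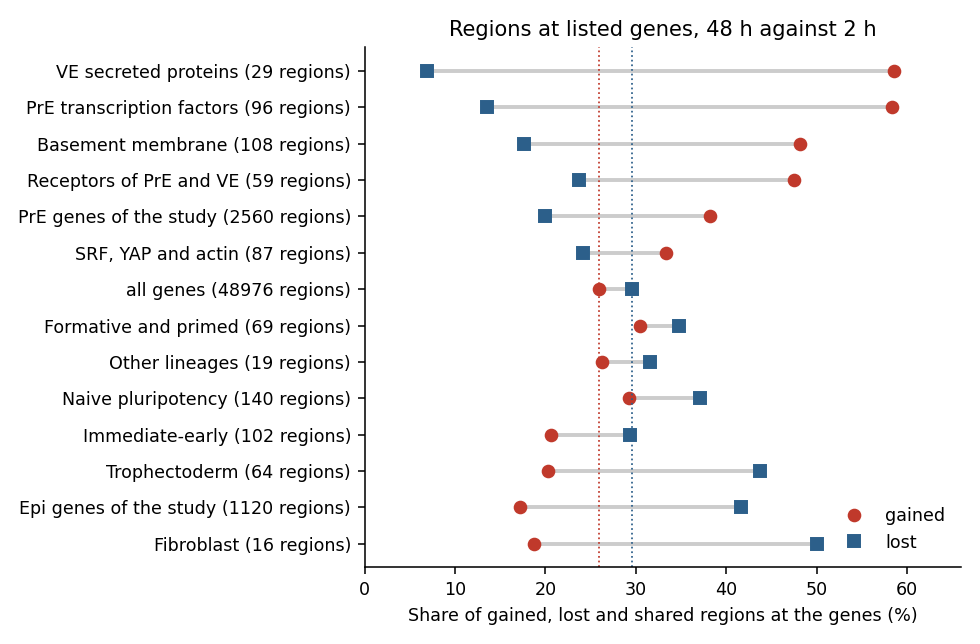
Percent of gained, lost and shared regions at the genes of each list that were gained (circles) or lost (squares), with the number of regions in parentheses, ordered by the difference. Dotted lines mark all genes (25.9% gained, 29.6% lost). PrE transcription factors stand at 58.3% gained and 13.5% lost, and the Epi genes of the study at 17.1% and 41.7%.

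PrE transcription factors had mostly gained regions, with 56 gained, 13 lost and 27 shared, or 58.3% gained and 13.5% lost. All 10 had more gained than lost regions. Tcf7l2 had 9 gained and 6 lost, Sox17 8 and 1, Gata4 7 and 0, Hnf4a 6 and 0 and Foxa2 6 and 1. Of the 56 gained regions, 53 were called in neither 0 h library. At Gata4, 2 of the 7 were called in both libraries at 4 h and 5 at 8 h, while 1 was called at no time before 48 h. Of the 8 at Sox17, 1 was called in both libraries by 4 h, 2 by 8 h, 4 by 16 h and all 8 by 24 h. GATA motifs were in 4 of the 7 Gata4 regions and 3 of the 8 Sox17 regions.

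Gata6 itself had 3 gained and 2 lost regions, none called at 0 h. The 3 gained regions all held a GATA motif and lay 42.5 kb upstream and 25.2 and 29.3 kb downstream of a TSS. One lost region lay in an exon, 1.60 kb from the TSS (chr18:11054040-11055251). Both libraries called it at 2 h and 4 h, 1 at 8 h and none at 0, 16, 24 or 48 h, so every call fell at a time when Dox was present. The transgene carries the coding sequence of Gata6, so its reads cannot be told apart from those of the endogenous exon.

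Receptors and extracellular proteins of the PrE and visceral endoderm had the same direction when counted by list. Endocytic and growth factor receptors had 28 gained, 14 lost and 17 shared regions, or 47.5% gained and 23.7% lost. Of the 10 genes, 6 had more gained than lost regions, 2 more lost and 2 as many of each. Pdgfra, the receptor used to mark PrE, had 8 gained and 0 lost, all 8 absent at 0 h, and Cubn, an endocytic receptor, had 6 and 1. Fgfr1, a receptor for FGF4, went against the list with 1 gained and 6 lost, 1 of them 118 bp upstream of a TSS. Lrp1 also had more lost regions, with 1 gained and 2 lost. Genes of the basement membrane and its assembly had 52 gained, 19 lost and 37 shared regions, or 48.1% gained and 17.6% lost. Of the 14 genes, 12 had more gained than lost regions. Lamb1, a laminin chain, had 6 and 0, and Lamc1, another, 6 and 5. Col4a1 had 5 and 3, with the lost region 256 bp from its TSS called in both libraries at 0, 2, 4, 16 and 24 h, in 1 at 8 h and in none at 48 h. Secreted proteins of the visceral endoderm had 17 gained, 2 lost and 10 shared regions at 10 genes, or 58.6% gained and 6.90% lost. Ctsl and Spink1 led with 4 gained each. Afp and Apom had no region within 50 kb, and Apoa1, Apob, Rbp4 and Trf had neither gained nor lost regions.

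Genes of naive pluripotency were divided, with 41 gained, 52 lost and 47 shared regions (29.3%, 37.1% and 33.6%). Of 20 genes, 11 had more lost than gained regions and 5 more gained than lost. Esrrb, a nuclear receptor of the naive network, had 12 lost and 3 gained. Of its 12 lost regions 8 were called in both 0 h libraries and 9 in both at 4 h, then 4 by 8 h, 8 by 16 h and 3 by 24 h, so calls did not fall steadily. Fgf4, the ligand that Epi cells send to PrE cells, had 5 lost and 0 gained, and its promoter region was still called in both libraries at 24 h. Klf4 went the other way with 5 gained and 0 lost, all absent at 0 h, as did Nr5a2 with 2 and 0. Tfcp2l1 had 5 gained and 1 lost. Nanog had 1 of each and Sox2 2 of each. At Pou5f1, which encodes OCT4, the region 1.03 kb upstream was called in both libraries at 0, 2 and 4 h, in 1 at 8 h and in none later. The neighbouring region 31 bp upstream of its TSS was called in none of the libraries up to 4 h and in both from 8 h on.

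**Figure D5:**
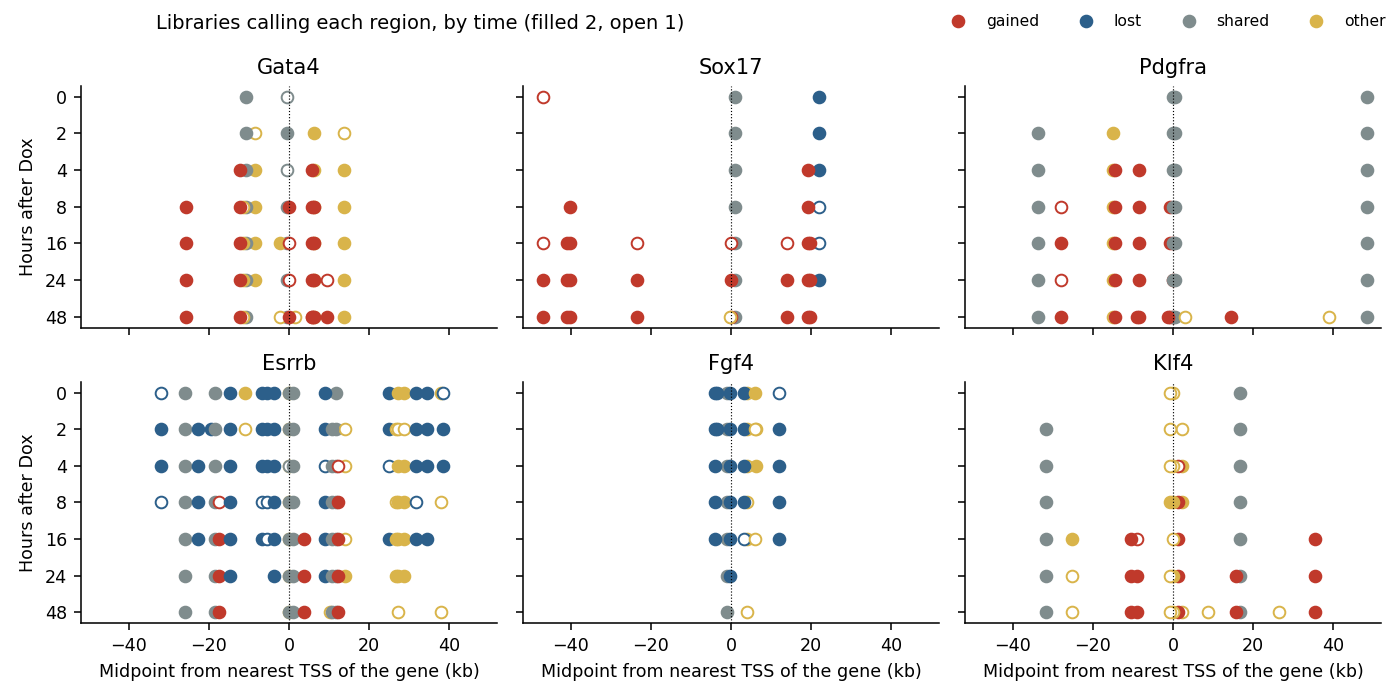
Regions within 50 kb of 6 genes, by midpoint from the nearest TSS of the gene (x axis, kb) and hours after Dox (y axis, evenly spaced). Filled circles were called in both libraries of a time and open ones in 1, coloured by class at 48 h against 2 h. Gata4, Sox17 and Pdgfra carry gained regions that appear from 4 h on, Esrrb and Fgf4 lost regions present at 0 h, and Klf4 gained and no lost regions.

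The lists of PrE and Epi genes that the study took from blastocyst single-cell data went in opposite directions. The 567 PrE genes with a region had 38.2% gained (40.5% ± 0.192 over pairs, SD, n = 2) and 20.0% lost (21.6% ± 0.229). The 215 Epi genes had 17.1% gained (21.2% ± 0.101) and 41.7% lost (42.1% ± 0.230). Of the PrE genes 276 (48.7%) had more gained than lost regions and 108 (19.0%) more lost. Of the Epi genes 33 (15.3%) had more gained and 122 (56.7%) more lost, against 26.5% and 31.0% of all genes. At PrE genes 90.1% of gained regions were absent from both 0 h libraries, and at Epi genes 79.7%, against 85.2% at all genes. Lost regions called in both 0 h libraries made up 45.1% of the lost regions at PrE genes, 59.7% at Epi genes and 51.0% at all genes.

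Immediate-early and serum response genes had 21 gained, 30 lost and 51 shared regions, or 20.6% gained and 29.4% lost, close to the 29.6% lost over all genes. Myc had 6 lost and 0 gained, and its promoter region 302 bp upstream was called in both libraries from 0 to 16 h. Of the 19 genes, 10 had more lost than gained regions, against 31.0% of all genes, and 7 had more gained. Fos had 2 lost and 0 gained beside 7 shared, Jun, Egr1, Egr2, Egr3, Ier5 and Dusp1 also had lost and no gained regions, and Fosl1, Junb, Jund, Atf3 and Srf had gained and no lost regions. Targets of SRF and YAP and actin genes had 29 gained, 21 lost and 37 shared regions. The shares were 33.3% gained and 24.1% lost, against 25.9% and 29.6% over all genes. Of the 16 genes, 5 had more gained than lost regions, 4 more lost and 7 as many of each. Vcl, which encodes the adhesion protein vinculin, had 6 lost regions of which 4 were absent at 0 h, and Amotl2, a YAP inhibitor, had 9 gained and 3 lost.

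Markers of fibroblasts, the usual feeder cells of ES cultures, moved with the losses. The 8 markers had 3 gained, 8 lost and 5 shared regions (18.8%, 50.0% and 31.3%), and 6 of 8 had more lost than gained. Col3a1, Thy1, Twist2 and Col1a1 had 1 lost region each, and Twist1 and Prrx1 had 2, while Col1a2 and Pdgfrb had gained and no lost regions. Plates were coated with gelatin, and the part of such cells in the lost regions was not tested.

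The genes with the most gained and no lost regions included Slc34a2, a phosphate transporter, Spns2, a sphingosine phosphate transporter, Pdgfra, Mrfap1 and Gcnt1 with 8 each, then Gata4, Socs1, Rab3il1, Fam3c and Ets1 with 7. Those with the most lost and no gained regions were Nav1 with 12, Chd9, Pam, Tnfrsf1b, Elavl2 and Dlgap3 with 8, and Erc2, Foxd3, Iqgap1 and Cd47 with 7. Foxd3 encodes a factor of pluripotent cells, and 6 of its 7 lost regions were called in both 0 h libraries. All 7 lost regions at Cd47 were called in both. Among the 5 gained regions with the highest scores by the lower of the 2 libraries, 1 lay in an intron of Esrrg, 174.5 kb from a protein-coding TSS, and was called in both libraries from 16 h on with an AP-1 and no GATA motif. The Etl4 and Car4 regions printed above were called in both libraries from 4 h on. A gained region 77.0 kb downstream of Foxa2, in an intron of the non-coding gene 9030622O22Rik, was called in both 0 h libraries, in neither at 2 h, in 1 at 4 h and in both at 8, 16, 24 and 48 h. Its peaks ranked at the 99.9th percentile of both 48 h lists, and it held no GATA motif.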

How the data were processed

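The authors processed the reads with the ENCODE ATAC-seq pipeline and deposited 1 peak list per library, not pooled over replicates. Per the file names, peaks passed an irreproducible discovery rate of 0.05 between pseudoreplicates and a blacklist filter. Each deposited peak has 1 unnamed value, treated as a score of unknown scale and used only as a percentile within its list. The submitters' processing notes name mm10, GRCm38 and deepTools, and 0 of 839049 peaks ended past their chromosome in GRCm38. Coordinates are counted from 1.

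Merging, classes, distances and motif searches were done in Python 3.11.15 with numpy 2.4.6, pandas 2.3.3, scipy 1.17.1 and pysam 0.24.0, and were tested on simulated lists. The tests the study ran need read counts, which these lists lack. TSS came from protein-coding transcripts of GENCODE M21. A region was settled from the first time after 2 h from which both libraries of every later time had its 48 h state. The members, the 11 gene lists and the motifs were chosen with earlier results of these data known. Some items are not reported here by name, though the list counts include them. Of the study's 579 PrE and 221 Epi symbols, 577 and 220 matched protein-coding genes. Named genes were those of the lists, the 10 with most gained and none lost regions and the reverse (ties by score percentile), and the regions with the highest scores in each class. Alternatives covered the 50000 highest peaks per library, 50% coverage, merging over 250 bp, 5 kb promoters, 20 kb assignment, all TSS, other motif windows, a replicate block and each library left out.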

Additional observations from a re-analysis of the deposited data

How the results depend on the processing

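The 22 main values were recomputed under 199 alternatives and some of the orders between them turned. Without the first 48 h library gains outnumbered losses, with 24318 against 22920 regions, under a rule that then asks fewer calls for a gain than for a loss. Over 5 kb from a TSS the GATA share of lost regions fell below that of shared ones. Without the first or the second 2 h library, lost regions had a median score percentile of 39.1 or 39.4, below the 44.4 of gained ones. Those sets ask 1 call at 2 h and still 2 at 48 h. Limits are set by the lists, which give no depth, and by 2 libraries per time. Of the 111 alternatives that left out no library, 44 kept a value and 67 moved it, and the cause was not tested. A share or percentile was kept if it moved by less than the SD between pairs, here with each pair merged on its own. Counts were kept if they changed by up to 1.5 times. Correlations with time were kept if their sign held and the adjusted permutation p stayed under 0.05. The AP-1 shares by 0 h calls and their alternatives were chosen after seeing the data.

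With the 50000 highest peaks per library, gained regions were 47.96% of changed regions, promoter shares were 14.4% of gained and 48.5% of shared regions, and PrE genes had 40.9% gained and 18.8% lost and Epi genes 19.4% and 39.4%. GATA shares were then 38.5% (gained), 22.03% (lost) and 13.8% (shared), and the median score percentiles were 42.1 for gained and 48.2 for lost regions. With at least 50% of the region covered, gained regions were 43.9% of changed ones, promoters were 5.88% of lost and 46.9% of shared regions, PrE genes had 41.2% gained and 22.4% lost and Epi genes 19.03% and 46.6%. GATA shares were then 21.7% of lost and 14.9% of shared regions, AP-1 was in 52.6% of lost regions absent at 0 h and 13.0% of those called in both 0 h libraries, and the score percentiles were 46.0 and 50.2. With peaks up to 250 bp apart merged, gained regions were 43.1% of changed ones, promoters were 8.49% of gained and 44.7% of shared regions, PrE genes had 35.5% gained and 20.2% lost and Epi genes 15.0% and 40.8%. GATA was then in 41.6% of gained and 22.2% of lost regions, AP-1 in 52.9% and 12.99% of the same lost regions, and the score percentiles were 45.5 and 49.5.

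With 1 call per time enough, 28527 regions were gained and 32966 lost, with 46.4% of changed regions gained. Within 5 kb of a TSS lay 24.5% of the gained, 16.0% of the lost and 54.6% of the shared regions. With the TSS of all annotated genes, promoters were 18.2%, 10.7% and 52.6%, PrE genes had 36.6% gained and 19.3% lost, and Epi genes 40.7% lost. With genes assigned within 20 kb, PrE genes had 36.6% gained and 16.8% lost and Epi genes 16.3% and 38.9%. In whole regions GATA was found in 53.5% of gained regions, 42.9% of lost ones and 32.8% of shared ones, and AP-1 in 73.6% of lost regions absent at 0 h and 28.8% of those called in both 0 h libraries. Over 5 kb from a TSS the GATA shares were 44.5%, 22.7% and 23.3%, and with permuted letters 13.4%, 12.8% and 7.90%. Ranked by width instead of score, the percentiles were 47.8 and 52.8.

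With each library left out in turn, gained regions ranged from 19038 to 24318, lost from 22920 to 28827 and shared from 26158 to 27440, and gained regions were 39.8% to 51.5% of changed ones. Promoter shares ranged from 13.1% to 15.1%, 5.41% to 6.37% and 44.1% to 45.0%, gains that also held against 0 h from 79.0% to 86.8% and losses from 46.5% to 53.0%. PrE genes had 36.3% to 42.9% gained and 18.7% to 23.2% lost, and Epi genes 16.7% to 23.0% and 38.1% to 45.2%. GATA shares ranged from 36.7% to 38.8%, 21.5% to 21.96% and 14.5% to 14.7%, AP-1 shares from 50.8% to 53.1% and 12.4% to 13.1%, and score percentiles from 33.9 to 44.4 and 39.1 to 48.8. The correlations with time stayed at 0.976 and -0.976.

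Same-numbered libraries did not deviate together: the correlation of their deviations at 2 h and 48 h was -0.0089 over 95549 regions. The replicate block left the counts at 17212, 21568 and 24709, by its construction, and gave a permutation p of 0.00347 for both correlations with time, an exact test within replicate numbers. Here too the trend is partly built in by the definition of the classes.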

Other observations

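Trophectoderm genes, the lineage set aside before PrE and Epi divide, had 13 gained, 28 lost and 23 shared regions. The shares were 20.3% gained and 43.8% lost, against 25.9% and 29.6% over all genes. Of the 10 genes, 6 had more lost than gained regions, against 31.0% of all genes. Tead4 had 10 lost and 3 gained, of which 6 lost regions were called in both 0 h libraries, Elf5 had 5 and 1, and Cdx2 had 2 and 0. Gata3 and Gata2 went the other way with 3 gained and 2 lost each, and at Gata2 the region 390 bp from a TSS had calls in both libraries by 8 h and later. Genes of the formative and primed epiblast had 21 gained, 24 lost and 24 shared regions, or 30.4% gained and 34.8% lost. Lef1, a WNT effector, had 5 lost and 0 gained, and the promoter regions of Dnmt3a (76 bp upstream) and Zic2 (409 bp upstream) were called in both 0 h libraries, in neither 2 h library and in both 48 h libraries.

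Genes of B cells, muscle, neurons and blood had 5 gained, 6 lost and 8 shared regions at 9 genes. The shares were 26.3% gained and 31.6% lost, close to the 25.9% and 29.6% over all genes.

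CTCF motifs were in 7.19% of shared, 4.97% of gained and 1.63% of lost regions, against 5.85% of all. Among gained regions the share was 11.1% where 1 of the 0 h libraries called the region, 6.07% where both did and 4.34% where neither did. On chromosome X, 21.7% of 2079 regions were gained and 18.9% lost, while on each of the 19 autosomes lost regions outnumbered gained ones, with 16.0% to 19.3% gained and 20.1% to 25.2% lost.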
